A study of Mus musculus with 12 samples.

Results

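The 14-3-3 proteins are encoded in the mouse by 7 genes, *Ywhab* (14-3-3β), *Ywhae* (ε), *Ywhag* (γ), *Ywhah* (η), *Ywhaq* (θ), *Ywhaz* (ζ) and *Sfn* (σ). They were taken by gene symbol from a table of 12850 genes measured in thioglycollate-elicited peritoneal exudate cells (PECs), and all 7 were listed there. PECs are cells, largely macrophages, that an injected irritant draws into the abdominal cavity. They were collected 3.5 days after the injection from C57BL/6 mice that were either WT or *Zc3h12a* S513A/S513A knock-in (S513A), in which alanine replaces a serine of Regnase-1 in every cell. The cells were left without LPS, a component of the outer membrane of bacteria (0 hr), or received 100 ng/ml of it for 4 or 8 hr. Each of the 6 groups had 2 RNA-seq libraries, 12 in all. The labels do not say whether replicates came from separate mice, so p values measure the spread between these libraries, which may be technical.

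14-3-3 proteins form dimers that bind phosphorylated serine or threonine in other proteins. Through such binding they hold kinases such as RAF in an inactive state, keep transcription factors such as the FOXO proteins in the cytoplasm, and mask or stabilize their partners. Most isoforms form both homodimers and heterodimers, whereas σ largely forms homodimers and is best known from epithelial cells. Regnase-1, an RNase that degrades mRNAs of inflammatory genes, is bound by 14-3-3 after Toll-like receptor signaling, and the serine replaced in S513A is among the residues that the study ties to this binding. The comparisons below address how abundant each isoform's transcript was in PECs, how it changed with LPS, and whether it differed between WT and S513A cells.

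The 7 genes lie on 6 chromosomes, and *Ywhag* and *Ywhah*, both on chromosome 5, were the closest pair by sequence, with 78.6% identity over their coding bases. Over the 21 pairs, coding identity ranged from 61.1% to 78.6% with a median of 67.5%, and *Ywhae* was a member of the lowest pair. In GRCm38 (GENCODE M21), *Ywhae* spans chr11:75732869-75765845, *Ywhab* chr2:163994960-164018588, *Ywhaz* chr15:36770770-36796929 and *Ywhag* chr5:135908409-135934616. *Ywhaq* spans chr12:21390071-21417637, *Ywhah* chr5:33018816-33027966 and *Sfn* chr4:133600556-133602168. The promoters of *Ywhae*, which rose with LPS in the deposited scaling, of *Ywhah*, which fell, and of *Ywhag*, the closest paralog of *Ywhah*, are given from RefSeq (GRCm38.p6), from 250 bases before to 50 bases after the gene start, 5′ to 3′ on the strand of the gene. Capitals mark letters matching a GC box (GGGCGG), the cAMP response element (CRE, TGACGTCA), a TATA box (TATAAA) or a CCAAT box (CCAAT) on either strand, and neighbouring or overlapping matches run together.
Ywhae, chr11:75732637-75732936, strand +: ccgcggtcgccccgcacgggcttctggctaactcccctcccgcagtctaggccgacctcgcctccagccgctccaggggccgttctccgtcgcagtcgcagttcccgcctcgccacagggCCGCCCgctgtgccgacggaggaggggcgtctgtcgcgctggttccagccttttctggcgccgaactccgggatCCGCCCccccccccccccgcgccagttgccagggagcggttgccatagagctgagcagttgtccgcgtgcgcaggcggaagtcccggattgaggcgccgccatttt
Ywhah, chr5:33018566-33018865, strand +: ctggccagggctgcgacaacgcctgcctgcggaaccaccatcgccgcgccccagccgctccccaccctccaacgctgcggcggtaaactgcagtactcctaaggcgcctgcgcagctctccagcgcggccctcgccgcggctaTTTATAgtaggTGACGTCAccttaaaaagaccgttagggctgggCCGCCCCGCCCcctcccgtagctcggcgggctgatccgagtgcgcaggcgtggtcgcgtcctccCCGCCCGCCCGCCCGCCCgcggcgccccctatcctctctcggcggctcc
Ywhag, chr5:135934592-135934891, strand -: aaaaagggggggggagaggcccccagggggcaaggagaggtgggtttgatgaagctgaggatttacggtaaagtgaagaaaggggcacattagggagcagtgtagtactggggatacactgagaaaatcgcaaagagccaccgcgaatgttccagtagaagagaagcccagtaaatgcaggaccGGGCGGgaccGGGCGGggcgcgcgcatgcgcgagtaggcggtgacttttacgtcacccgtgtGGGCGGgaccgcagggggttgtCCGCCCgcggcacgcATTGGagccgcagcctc
The table of promoters held 5 of the 7 genes, with *Ywhaq* and *Sfn* as the others. The *Ywhah* window held the CRE letters once, which 1.8% of all 32851 promoters of the table held, and none of the other 4 windows did. It also held the GC box letters at 6 places and the TATA box letters at 1 place, against 35.7% and 13.6% of all promoters with at least 1 match. The *Ywhae* window matched the GC box alone, at 2 places, and the *Ywhag* window matched it at 4 places and the CCAAT box (37.4% of promoters) at 1 place. None of the 5 windows held the letters of AP-1 (TGANTCA, 7.8% of promoters), an E-box (CACGTG, 7.2%), the interferon-stimulated response element (3.4%) or the κB motif (4.5%). GC content was 71.7% in *Ywhae* and *Ywhah*, 61.3% in *Ywhag* and 65.3% in *Ywhaq*, each with 23 to 38 CG dinucleotides. *Sfn* had 54.0% GC and 4 CG dinucleotides, against medians of 52.7% and 7 over all promoters. These matches describe the letters of the windows only.

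The deposited values are log2 CPM, that is, the log2 of read counts relative to library size, made with 0.5 read added to each count and with a normalization factor per library, and whole reads were recovered from them. Reads on listed genes numbered 9525979 to 12439960 per library. Over the 8353 genes whose mean log2 CPM reached 3, replicates differed with an SD (log2) of 0.162 to 0.216 in the 0 hr groups and WT 8 hr, 0.401 in WT 4 hr, 0.287 in S513A 4 hr and 0.341 in S513A 8 hr. The differences in these last 3 groups went together, with correlations across genes of -0.739, -0.749 and 0.76. All 8 macrophage markers were listed, with a summed level of 16200 to 26360 CPM, of which *Lyz2* alone held 9006 to 20940 CPM. Of 8 neutrophil markers 3 were listed, at 362 to 745 CPM, nearly all *Mmp8* and falling over time (660 to 745 at 0 hr, 362 to 575 at 8 hr), whereas *Ly6g*, *S100a9*, *Cxcr2*, *Retnlg* and *Ltf* were not. The listed markers of eosinophils (2 of 4) summed to 15.2 to 18.4 CPM at 0 hr and 3.54 to 4.48 CPM at 8 hr, and those of B cells (4 of 5), T cells (2 of 5), mast cells (4 of 5), mesothelial cells (4 of 5) and epithelial cells (1 of 5) to 8.68 CPM or less in every library, with T cell markers at 0.557 to 1.62 CPM at 0 hr and 4.69 to 8.48 at 4 hr. No erythroid marker of 5 was listed. The part of these other cells in the values below was not tested, and in such bulk RNA, fewer cells of a type and less RNA per cell cannot be told apart.

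PECs carried transcripts of all 7 isoforms, and *Ywhae* was the most abundant. Levels between genes were compared as CPM per kb of the union of annotated exons. The median over 12 libraries was 167 CPM per kb for *Ywhae*, 93.7 for *Ywhab*, 73.9 for *Ywhaz*, 43.3 for *Ywhag*, 35.7 for *Ywhaq*, 18.8 for *Ywhah* and 4.59 for *Sfn*. Among 11957 listed genes with an annotated length, the mean level of *Ywhae* lay at the 97.5 percentile, that of *Ywhab* at 95.7 and that of *Ywhaz* at 94.5. *Ywhag*, *Ywhaq* and *Ywhah* lay at the 90.9, 89.0 and 81.0 percentiles, whereas *Sfn* lay near the middle, at 50.8. *Sfn* was counted with 45 to 125 reads per library, while each of the other 6 genes had 566 to 5142.

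The order of the medians was the same at 0, 4 and 8 hr. *Ywhae* exceeded *Ywhab*, its neighbour in the order, in 12 of 12 libraries, by a median ratio of 1.70 (range 1.43 to 1.86), and their ranges over the libraries did not overlap. *Ywhab* exceeded *Ywhaz* in each of the 12 libraries too (median ratio 1.31, range 1.12 to 1.49), although their ranges over all libraries overlapped. *Ywhag* and *Ywhaq* overlapped in range over all 12 libraries: *Ywhag* was the higher in 10 of 12, with ratios from 0.881 to 1.69. Their ranges also overlapped at 4 hr, where *Ywhag* was the higher in 2 of 4 libraries. At 0 hr and at 8 hr it was the higher in 4 of 4 without overlap (ratios 1.06 to 1.49 and 1.08 to 1.69). *Ywhah* exceeded *Sfn* by a median ratio of 4.47 (range 2.71 to 5.87). Over all 12 libraries, 4 of the 6 neighbouring pairs did not overlap in range, against 2 of 6 with the length of the longest transcript.

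The make-up of the 14-3-3 pool shifted with LPS toward *Ywhae* and away from *Ywhah*. At 0 hr, *Ywhae* made up a median of 34.2% (range 32.6 to 35.1, n = 4) of the summed CPM per kb of the 7 genes, *Ywhab* 22.6%, *Ywhaz* 15.6%, *Ywhag* 11.1%, *Ywhaq* 9.13%, *Ywhah* 6.30% and *Sfn* 1.19%. The share of *Ywhae* was 38.0% (35.9 to 39.0) at 4 hr and 38.3% (36.9 to 38.8) at 8 hr, above every 0 hr library. The share of *Ywhah* was 4.00% (3.45 to 4.15) at 4 hr and 3.86% (3.72 to 4.13) at 8 hr, below the 0 hr range of 5.86 to 6.64. *Ywhab* remained between 20.9% and 22.8% in all 12 libraries. *Ywhaz* had 18.0% (16.8 to 19.8) at 4 hr and 16.6% (15.8 to 18.1) at 8 hr, ranges that overlap the 15.4 to 17.0 of 0 hr. Shares and ratios within a library do not change when each library is multiplied by a single factor, whereas quantile normalization can change them.

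**Figure D1:**
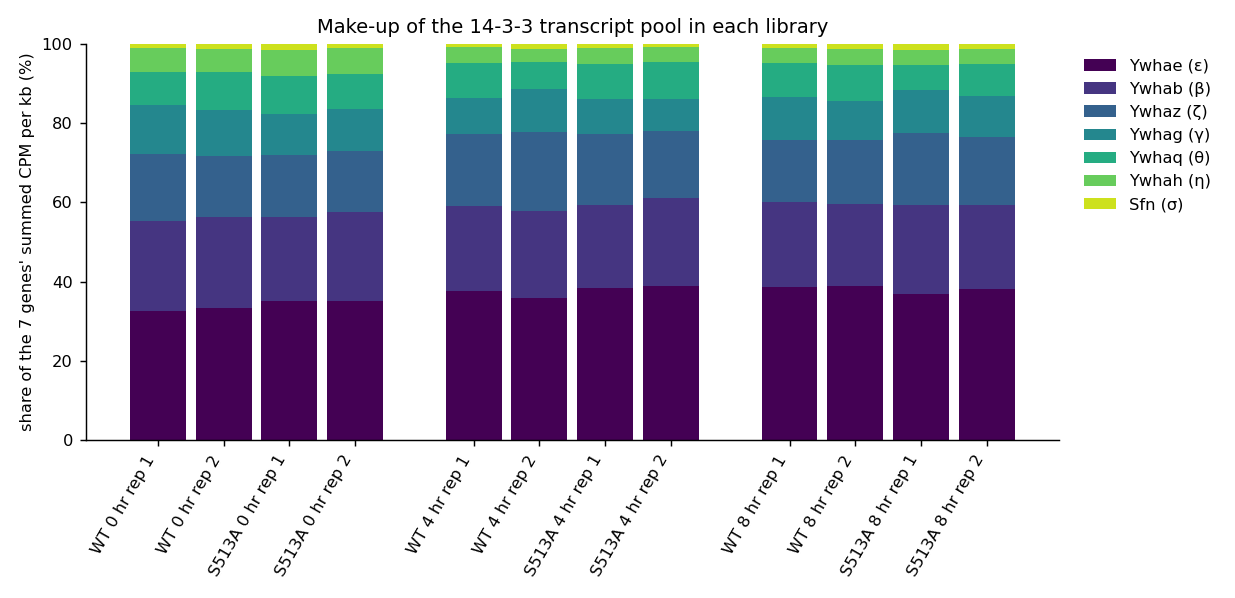
Share of each 14-3-3 gene in the summed CPM per kb of the 7 genes (y axis, percent), 1 bar per library, grouped by 0, 4 and 8 hr of LPS. *Ywhae* takes 32.6 to 35.1% at 0 hr and 35.9 to 39.0% after LPS, while *Ywhah* takes 5.86 to 6.64% at 0 hr and 3.45 to 4.15% after LPS.

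The ratio of *Ywhae* to *Ywhah* in the same library, as log2 of the CPM ratio without length, was 1.88 and 1.98 in WT PECs before LPS, 2.67 and 2.85 after 4 hr, and 2.80 and 2.70 after 8 hr. In S513A PECs it was 1.87 and 1.91 before LPS, 2.68 and 2.78 after 4 hr, and 2.72 and 2.82 after 8 hr. Every library with LPS thus exceeded every library without it, in both genotypes. The mean went from 1.91 ± 0.05 (SD, n = 4) at 0 hr to 2.75 ± 0.07 (SD, n = 8) with LPS, a 1.80-fold rise relative to *Ywhah* (two-sided exact permutation test over 12 libraries, p = 0.00404, which is the smallest this design can give as its groups do not overlap, and 0.0141 after Benjamini-Hochberg adjustment over 21 pairs). The grouping of 4 and 8 hr libraries together was chosen after seeing the data, so p values from it only describe the separation. Against *Ywhah*, *Ywhaz* rose 1.77-fold, *Ywhab* 1.56-fold, *Ywhaq* 1.46-fold and *Ywhag* 1.42-fold, each with the same exact p. The ratio of *Sfn* to *Ywhah* was 1.41-fold higher with LPS but did not pass (exact p = 0.0485, adjusted p = 0.0919). The log2 ratio of *Ywhae* to *Ywhaz* differed by 0.02 between LPS and 0 hr, within its spread (exact permutation p = 0.804, adjusted p = 0.907), and lay between 0.18 and 0.61 in LPS libraries and between 0.26 and 0.50 at 0 hr.

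In all, 10 of the 21 ratios differed between LPS and 0 hr, 5 of them with *Ywhah* as a partner. Those 5 share the values of *Ywhah* and are not independent. The share among pairs of all genes was not computed, and of single genes 55.8% were called at 4 hr and 46.1% at 8 hr with limma. The other 5 ratios were *Ywhab* to *Ywhae* (0.867-fold), *Ywhab* to *Ywhaz* (0.878-fold), *Ywhae* to *Ywhag* (1.27-fold), *Ywhae* to *Ywhaq* (1.23-fold) and *Ywhag* to *Ywhaz* (0.799-fold). The count was 6 without S513A 0 hr replicate 2 and 6 without WT 0 hr replicate 2. At 4 hr alone or 8 hr alone, with 4 against 4 libraries, 9 ratios had an unadjusted exact p under 0.05 and none of the 21 passed after adjustment, where the smallest possible p was 0.0286.

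**Figure D2:**
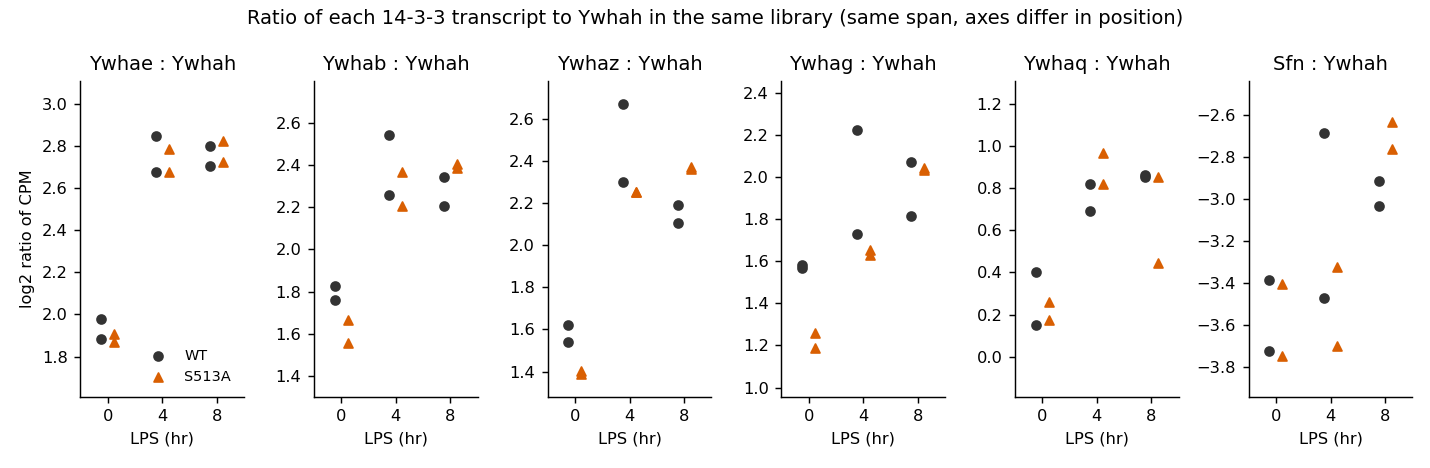
Log2 ratio of the CPM of each other 14-3-3 gene to *Ywhah* in the same library (y axis) at 0, 4 and 8 hr of LPS (x axis), 1 symbol per library, circles for WT and triangles for S513A. For *Ywhae*, the 8 libraries with LPS lie between 2.67 and 2.85 and the 4 at 0 hr between 1.87 and 1.98.

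Differences over time in the level of each gene were tested on the deposited log2 CPM with limma, with Benjamini-Hochberg adjustment over the 11885 genes that reached 1 CPM in 2 or more libraries and a threshold of 0.05. Averaged over the genotypes, 4 of the 7 genes were called at 4 hr of LPS against 0 hr, 3 higher and 1 lower, where 55.8% of all genes tested were called, 29.1% higher and 26.7% lower. At 8 hr, 3 of 7 were called, 2 higher and 1 lower, where 46.1% of all were, 24.5% higher and 21.6% lower. The share called is thus near the background. The median log2 fold change of the 7 genes was 0.21 at 4 hr and 0.18 at 8 hr, beside 0.02 and -0.00 for all genes. The 4 hr and 8 hr comparisons share their 0 hr libraries.

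The size of these changes rests on the scaling between libraries. The normalization factors were 1.06 to 1.15 at 0 hr, 0.877 to 0.973 at 4 hr and 0.945 to 1.03 at 8 hr. Scaled to the total of listed reads instead, the median of all genes shifted by -0.25 at 4 hr and -0.17 at 8 hr, and the share of called genes that were higher went from 52.2% to 30.9% at 4 hr and from 53.2% to 35.0% at 8 hr. The 7 genes together held 364 to 386 CPM per kb at 0 hr, 461 to 476 at 4 hr and 418 to 467 at 8 hr in the deposited scaling. As a share of all listed reads they held 0.138 to 0.149% at 0 hr, 0.138 to 0.154% at 4 hr and 0.139 to 0.165% at 8 hr, ranges that overlap. Each direction below is therefore given with the scalings under which it held.

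*Ywhah*, which encodes 14-3-3η, fell. In WT PECs it stood at a log2 CPM of 6.40 and 6.31 before LPS, 6.15 and 5.88 after 4 hr, and 5.90 and 6.09 after 8 hr. In S513A PECs it stood at 6.56 and 6.54 before LPS, 6.20 and 6.10 after 4 hr, and 6.07 and 5.94 after 8 hr. All 8 libraries with LPS lay below all 4 at 0 hr. It fell by 0.37 (log2) after 4 hr (95% confidence interval -0.56 to -0.18, limma adjusted p = 0.00342) and by 0.45 after 8 hr (-0.64 to -0.27, limma adjusted p = 0.00122). The fall was larger under the other scalings and passed the limma test in each, with -0.62 at 4 and at 8 hr when scaled to the total of reads, -0.58 and -0.62 after quantile normalization, and -0.46 and -0.52 with median-ratio scaling. The change at 8 hr lay at the 19.9 percentile of all genes tested. Of the 3 groups whose replicates differed most, leaving out WT 4 hr replicate 1, S513A 4 hr replicate 2 and S513A 8 hr replicate 2 gave -0.41 and -0.42 at 4 and 8 hr. Leaving out the other replicate of each gave -0.33 and -0.49.

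*Ywhae* encodes 14-3-3ε. Its log2 CPM in WT PECs was 8.28 and 8.29 before LPS, 8.82 and 8.73 after 4 hr, and 8.70 and 8.79 after 8 hr. S513A PECs had 8.43 and 8.44 before LPS, 8.87 and 8.89 after 4 hr, and 8.79 and 8.76 after 8 hr. The libraries with LPS lay above those without, in both genotypes. The log2 fold change was 0.47 after 4 hr (95% confidence interval 0.32 to 0.61, limma adjusted p = 0.000122) and 0.40 after 8 hr (0.25 to 0.55, limma adjusted p = 0.000499). With median-ratio scaling it was 0.38 and 0.33 and called (limma adjusted p = 0.000422 and 0.00143). Scaled to the total of reads, it was 0.21 and 0.23 and still called (limma adjusted p = 0.0198 and 0.0159), whereas after quantile normalization it was 0.09 and 0.13 and not called (limma adjusted p = 0.319 and 0.162).

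*Ywhaz*, the gene of 14-3-3ζ, had the highest log2 fold change of the 7 at 4 hr, 0.51 (95% confidence interval 0.35 to 0.68, limma adjusted p = 0.000168). In WT PECs its log2 CPM went from 8.02 and 7.85 at 0 hr to 8.45 and 8.55 at 4 hr and stood at 8.09 and 8.19 at 8 hr. S513A PECs had 7.95 and 7.94 before LPS, 8.45 and 8.36 after 4 hr, and 8.44 and 8.30 after 8 hr. Both WT libraries at 8 hr lay below both at 4 hr, whereas the S513A libraries of 4 and 8 hr overlapped. At 8 hr the log2 fold change against 0 hr was 0.32 (0.15 to 0.48, limma adjusted p = 0.00525). Scaled to the total of reads, the value was 0.26 and 0.15 (limma adjusted p = 0.0268 and 0.180), and after quantile normalization it was 0.13 and 0.03 and not called (limma adjusted p = 0.272 and 0.834).

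*Ywhab* encodes 14-3-3β. It stood at 8.16 and 8.14 log2 CPM before LPS, 8.41 and 8.43 after 4 hr, and 8.24 and 8.29 after 8 hr in WT PECs. S513A PECs had 8.12 and 8.20, 8.40 and 8.47, and 8.47 and 8.33 at the same times. No library with LPS overlapped the 0 hr libraries. The log2 fold change was 0.27 after 4 hr (95% confidence interval 0.12 to 0.43, limma adjusted p = 0.00548) and 0.18 after 8 hr (0.03 to 0.33, limma adjusted p = 0.0506, and between 0.0348 and 0.0448 without WT 4 hr replicate 1, WT 4 hr replicate 2 or S513A 8 hr replicate 2). This direction did not hold across scalings: the values were 0.02 at both times when scaled to the total of reads (limma adjusted p = 0.839 and 0.886), and -0.11 and -0.09 after quantile normalization (limma adjusted p = 0.265 and 0.382). With median-ratio scaling the values were 0.19 and 0.11 (limma adjusted p = 0.0388 and 0.216).

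**Figure D3:**
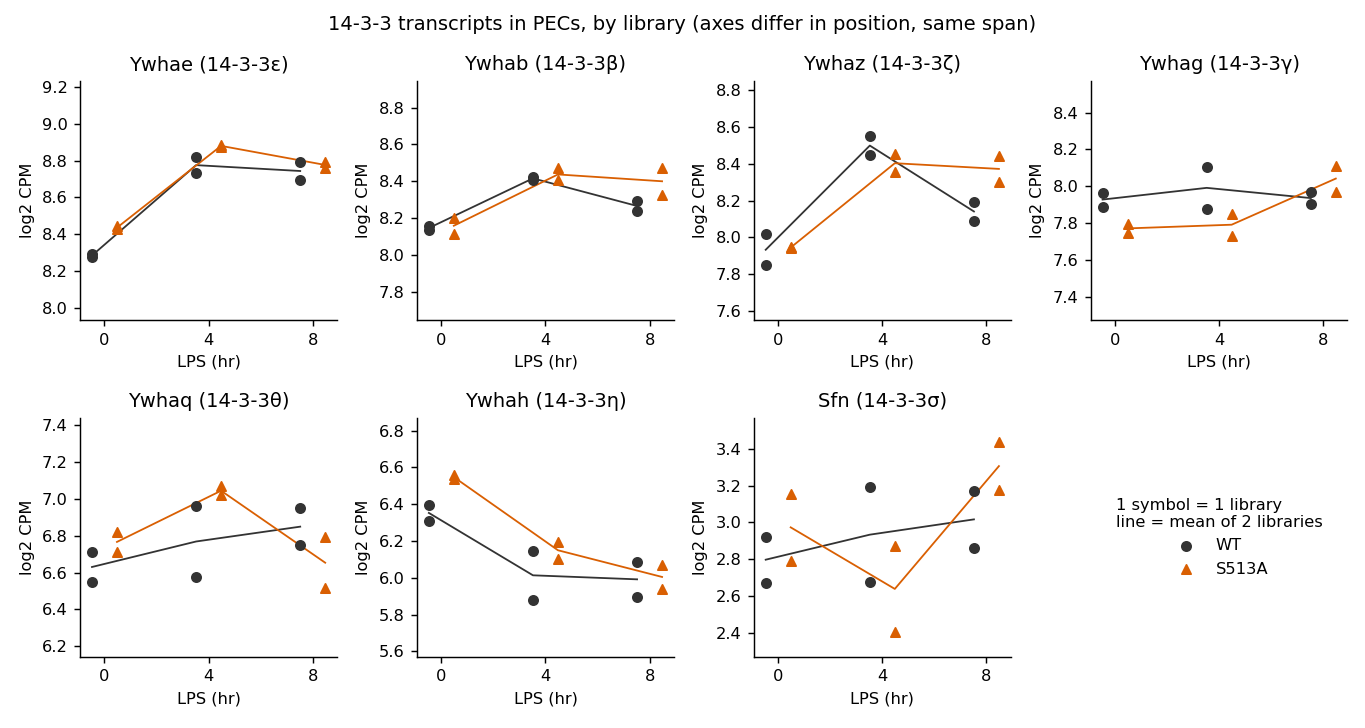
Log2 CPM (y axis, deposited scaling) of each 14-3-3 gene at 0, 4 and 8 hr of LPS (x axis), 1 symbol per library, circles for WT and triangles for S513A, with lines through the means of 2 libraries. *Ywhae*, *Ywhab* and *Ywhaz* lie higher and *Ywhah* lower in all 8 LPS libraries than in the 4 at 0 hr, while *Ywhag*, *Ywhaq* and *Sfn* overlap; after quantile normalization the mean of *Ywhab* is instead lower with LPS.

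The 4 genes above were also those whose libraries did not overlap between LPS and 0 hr, at 4 hr (where 49.1% of all genes tested did not overlap) and at 8 hr (43.7%). *Ywhag*, the gene of 14-3-3γ, was at 7.97 and 7.89 log2 CPM before LPS, 7.88 and 8.11 after 4 hr, and 7.97 and 7.90 after 8 hr in WT PECs, and at 7.75 and 7.79, 7.85 and 7.73, and 8.11 and 7.97 in S513A PECs. Its log2 fold change was 0.04 at 4 hr (95% confidence interval -0.13 to 0.21, limma adjusted p = 0.675) and 0.14 after 8 hr (-0.03 to 0.31, limma adjusted p = 0.171). Under quantile normalization these were -0.33 (limma adjusted p = 0.0137) and -0.13 (limma adjusted p = 0.296), so its direction also turned with the scaling. Scaled to the total of reads they were -0.21 and -0.03 (limma adjusted p = 0.0777 and 0.839). With median-ratio scaling they were -0.05 and 0.07 (limma adjusted p = 0.675 and 0.526).

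*Ywhaq*, the gene of 14-3-3θ, varied most between replicates among the 6 more abundant genes. In WT PECs its log2 CPM was 6.55 and 6.71 before LPS, 6.96 and 6.57 after 4 hr, and 6.75 and 6.95 after 8 hr. In S513A PECs it was 6.82 and 6.71 before LPS, 7.02 and 7.07 after 4 hr, and 6.51 and 6.79 after 8 hr. The log2 fold change was 0.21 at 4 hr (95% confidence interval -0.02 to 0.44, limma adjusted p = 0.116), and 0.31 when WT 4 hr replicate 2 was left out (limma adjusted p = 0.0178). At 8 hr it was 0.05 (-0.18 to 0.29, limma adjusted p = 0.714). Both values were negative when scaled to the total of reads (-0.05 and -0.11) and after quantile normalization (-0.06 and -0.14), and not called in either. With median-ratio scaling they were 0.12 and -0.02 and not called.

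*Sfn*, the gene of 14-3-3σ, was counted with 91 and 98 reads in WT PECs before LPS, 72 and 99 after 4 hr, and 76 and 94 after 8 hr. In S513A PECs it had 101 and 82 reads before LPS, 74 and 45 after 4 hr, and 125 and 83 after 8 hr. Its log2 fold change was -0.10 at 4 hr (95% confidence interval -0.48 to 0.28, limma adjusted p = 0.648) and 0.28 after 8 hr (-0.10 to 0.65, limma adjusted p = 0.216). At these counts the interval is about 2 times as wide as that of *Ywhah*, and it includes a fall as large as that of *Ywhah* at 4 hr and a rise as large as that of *Ywhae* at 8 hr. The *Sfn* values were -0.35 and 0.11 scaled to the total of reads and 0.06 and 0.35 after quantile normalization. With median-ratio scaling they were -0.19 and 0.21, and *Sfn* was not called in any of these scalings.

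**Figure D4:**
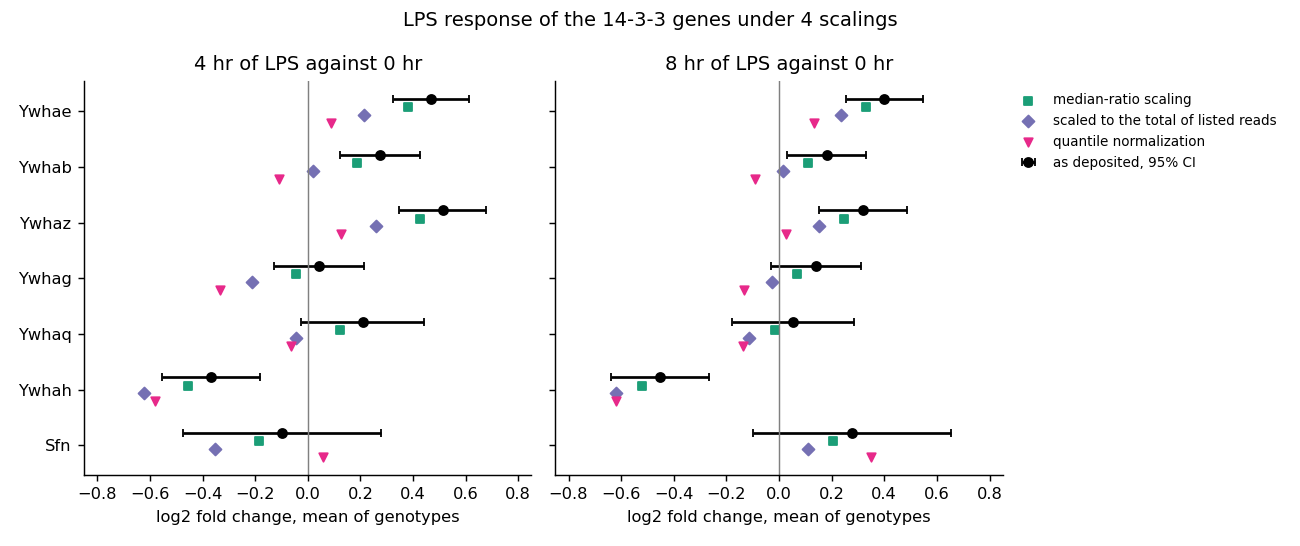
Log2 fold change (x axis, mean of genotypes) of each 14-3-3 gene (y axis) at 4 hr and 8 hr of LPS against 0 hr. Black circles give the deposited scaling with its 95% confidence interval, and the other symbols give 3 other scalings, under all of which *Ywhah* is lower, while *Ywhab*, *Ywhag*, *Ywhaq* and, at 4 hr, *Sfn* lie on both sides of 0.

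Between 8 and 4 hr of LPS, none of the 7 genes was called with limma (0 of 7, where 25.6% of all genes tested were called), 1 had an unadjusted p under 0.05, and voom weights gave 0 calls as well. With the genotypes together, the libraries of 8 and 4 hr overlapped for all 7 genes (23.6% of all genes did not overlap). Within WT, 2 of 7 did not overlap (54.7% of all genes), with *Ywhab* and *Ywhaz* lower at 8 hr. Within S513A, 5 of 7 did not (60.4%), with *Ywhag* and *Sfn* higher and *Ywhae*, *Ywhah* and *Ywhaq* lower. *Ywhaz* had the lowest log2 fold change, -0.19 (95% confidence interval -0.36 to -0.03, limma adjusted p = 0.0844), and *Sfn* the highest, 0.38 (-0.00 to 0.75, limma adjusted p = 0.137).

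Within each genotype, the genes called with limma at 4 hr were *Ywhab*, *Ywhae*, *Ywhaz* (higher) and *Ywhah* (lower), in WT (41.3% of all genes called) as in S513A (43.2%). At 8 hr, *Ywhae* and *Ywhah* were called in WT (34.3%) and *Ywhae*, *Ywhaz* and *Ywhah* in S513A (39.9%). These counts turned on single libraries. The WT count of 4 at 4 hr became 3 without WT 4 hr replicate 1 or without either S513A 8 hr library, and 2 without any 1 of the other libraries. The share of all genes called there was 28.9% without WT 0 hr replicate 1 and 29.7% without WT 0 hr replicate 2. It was 39.4% without WT 4 hr replicate 1 and 40.5% without WT 4 hr replicate 2. The S513A count of 4 became 2 without S513A 4 hr replicate 2 and without either library of S513A 0 hr. At 8 hr, the WT count of 2 became 1 without any 1 of the WT 0 hr, WT 8 hr and S513A 0 hr libraries. The share of all genes called there was 22.4% without WT 0 hr replicate 1 and 23.4% without WT 0 hr replicate 2. The S513A count of 3 became 1 without S513A 8 hr replicate 1 and without either library of S513A 0 hr. It became 5 without either WT 4 hr library, where 45.6% of all genes were called. *Ywhaz* at 8 hr had a log2 fold change of 0.21 in WT and 0.43 in S513A, and the difference of 0.22 was within error (95% confidence interval -0.11 to 0.55, limma adjusted p = 0.392).

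With all 12 libraries and group means alone, no 14-3-3 transcript passed the test between S513A and WT PECs. With limma, 0 of 7 genes were called averaged over the time points (where 0.0673% of all genes were called), 0 before LPS (0.0337%), 0 after 4 hr (0.0168%) and 0 after 8 hr (0.0337%). None had an unadjusted p under 0.05, and voom weights gave 0 calls in each comparison. Averaged over time, the differences ran from -0.08 for *Ywhag* (95% confidence interval -0.22 to 0.06, limma adjusted p = 0.868) to 0.11 for *Ywhah* (-0.04 to 0.27, limma adjusted p = 0.832). For *Ywhae* the interval ran from -0.02 to 0.22, for *Ywhab* from -0.07 to 0.18 and for *Ywhaz* from -0.09 to 0.19. The largest single difference of these 3 genes was that of *Ywhaz* at 8 hr, 0.23 (-0.00 to 0.47, limma adjusted p = 0.402), where the S513A values were both above the WT values. It was 0.30 without WT 4 hr replicate 1, S513A 4 hr replicate 2 and S513A 8 hr replicate 2, and 0.16 without the other replicate of each of these groups. Either setting leaves a single library in these groups. The error then comes only from the other groups, whose replicates differed least, so calls are not given. With a term for the shared replicate differences, limma called *Ywhaz* at 8 hr (adjusted p = 0.0307, 20.8% of all genes) and *Ywhag* (-0.20, adjusted p = 0.0463) and *Ywhaq* (0.28, adjusted p = 0.0392) at 4 hr (12.6%). The term is the main component of the replicate differences of these same libraries, with 67.6% of their sum of squares. It lowers the error and leaves the fold changes as they were, so calls gained with it are not separate evidence.

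At a single time point, the 2 S513A libraries did not overlap the 2 WT libraries for 3 of the 7 genes at 0 hr (57.5% of all genes), 3 at 4 hr (28.2%) and 4 at 8 hr (53.6%). *Ywhae* lay higher in S513A at 0 and 4 hr, *Ywhah* at 0 hr and *Ywhaq* at 4 hr, and *Ywhab*, *Ywhaz* and *Sfn* did at 8 hr. *Ywhag* lay lower in S513A at 0 and 4 hr but higher at 8 hr. For the difference between genotypes in the response to LPS, limma called 0 of 7 genes at 4 hr and at 8 hr, where 0.0% of all genes were called, and 0 had an unadjusted p under 0.05 or were called by voom. At 8 hr the sizes turned on a few libraries. Without WT 4 hr replicate 1, S513A 4 hr replicate 2 and S513A 8 hr replicate 2, the difference was 0.33 for *Ywhag* and -0.47 for *Ywhaq*. Without the other replicate of each group it was 0.19 and -0.19. These fits leave a single library in the groups concerned, so calls are not given. With the term for the replicate differences, limma called both genes (adjusted p = 0.0330 and 0.0399), where 29.9% of all genes were called. The limit given above for this term applies here too. The interaction with the largest size was that of *Sfn* at 4 hr, -0.47 (95% confidence interval -1.22 to 0.28, limma adjusted p = 1.00), and among the other 6 genes that of *Ywhaq* at 8 hr, -0.33 (-0.80 to 0.13, limma adjusted p = 0.355).

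Of 44 genes for proteins known to bind 14-3-3, 41 were listed (not *Cdc25c*, *Irs1* and *Mlxipl*) and 39 tested, and the changes of single genes reached sizes several times those of the 14-3-3 genes. At 4 hr, limma called 12 higher and 17 lower and did not call 10, beside 55.8% called of all genes, with a median log2 fold change of -0.09 beside 0.02 for all genes. At 8 hr it called 11 higher and 13 lower and did not call 15, beside 46.1% called of all genes, with a median of -0.00, the same as that of all genes. Scaled to the total of reads, 8 were higher and 19 lower at 4 hr, and 7 and 15 at 8 hr. None of the 39 was called between genotypes averaged over time with limma, and 2 had an unadjusted p under 0.05. That average joins opposite signs. The list's median S513A difference was negative before LPS (-0.23) and at 4 hr (-0.22) but positive at 8 hr (0.20), beside 0.01 for all genes each time. No single time gave a call. For the genotype difference in the 8 hr response, limma called 0 of 39, where 0.0% of all genes were called. Its median over the list was 0.39, beside 0.01 for all genes. An unadjusted limma p under 0.05 was found for 11 of 39. The share of all genes with such a p was not computed for either comparison, so these counts are not a result about the list. These genes share their libraries and are not independent. Replicates differed most in WT 4 hr, S513A 4 hr and S513A 8 hr, and the part of this in the medians was not tested.

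*Zc3h12a*, the gene of Regnase-1, rose most of this list. Its log2 CPM in WT PECs was 5.39 and 5.20 before LPS, 7.90 and 8.11 after 4 hr, and 6.89 and 6.80 after 8 hr, and in S513A PECs 4.99 and 5.09, 7.98 and 7.87, and 7.11 and 6.99. It was 6.96-fold higher after 4 hr and 3.44-fold after 8 hr (limma adjusted p = 6.19e-10 and 2.51e-08), against 1.38-fold and 1.32-fold for *Ywhae*. At 4 hr it was followed by *Map3k5* (ASK1, a stress-activated kinase), 3.74-fold higher, and *Hdac9* (a class IIa histone deacetylase), 3.13-fold higher. The genes that fell most at 4 hr were *Cdc25b* (a cell cycle phosphatase), to 0.149-fold, *Hdac5* (a class IIa histone deacetylase), to 0.203-fold, and *Zfp36l1* (an mRNA decay factor of the tristetraprolin family), to 0.235-fold. At 8 hr, *Map3k5* was 2.21-fold and *Ksr1* (a scaffold of RAF signaling) 2.02-fold higher, and *Zfp36l1*, *Cdc25b* and *Irs2* (an adaptor of insulin signaling) were at 0.273-fold, 0.329-fold and 0.342-fold. Each of these changes passed the limma test and kept its direction in all 4 scalings. *Cdc25b* was counted with 7 to 38 reads in the LPS libraries.

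A list of 7 genes held *Zc3h12a* itself and genes of the machinery that modifies Regnase-1. Of these 7, 4 were higher with limma at 4 hr and at 8 hr, *Zc3h12a* among them, and 0 lower. Of all genes, 29.1% were higher and 26.7% lower at 4 hr, and 24.5% and 21.6% at 8 hr. Besides *Zc3h12a*, these were *Irak2* (a kinase of Toll-like receptor signaling; 2.89-fold at 4 hr and 2.01-fold at 8 hr), *Fbxw11* (βTRCP2, a substrate receptor of the SCF ubiquitin ligase; 1.59-fold and 1.37-fold) and *Cul1* (the scaffold of that ligase; 1.40-fold and 1.52-fold). *Irak1*, *Btrc* and *Skp1a* were not called, but *Irak1* was lower at 4 hr after quantile normalization (-0.38, limma adjusted p = 0.00199) and when scaled to the total of reads (-0.36, limma adjusted p = 0.00479). *Smg5*, which carries a 14-3-3-like domain and acts in nonsense-mediated decay, was higher by 0.68 (log2) after 4 hr (limma adjusted p = 0.000126), whereas *Smg6*, which also has such a domain, differed by -0.01 (limma adjusted p = 0.977).

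The genes whose log2 CPM over the 12 libraries was most like that of each 14-3-3 gene were sought among 8347 genes whose mean log2 CPM reached 3. For *Ywhae* they were *Dcaf12* (Pearson r = 0.994) and *Rab3ip* (0.990). For *Ywhaz* they were *Plekho2* and *Tox4* (0.976 each), for *Ywhab* *Fbxw11* (0.959) and *Tomm70a* (0.957), and for *Ywhag* *Scaf4* (0.970). For *Ywhah* they were *Tram1* (0.959) and *Cd68* (0.949), for *Ywhaq* *Rbmxl1* (0.958) and *Tmx1* (0.953), and for *Sfn* *D1Ertd448e* (0.875) and *Alg12* (0.868). The libraries share their scaling and, in pairs, their group, so these correlations are descriptions.

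The counting could mix some of these genes with near copies. Of the 50-base stretches of annotated *Ywhaq* transcripts, 28.9% also occur in transcripts of other genes, the pseudogenes *Gm2423* and *Ywhaq-ps3* among them, and 8.10% of its exon bases overlap *Gm4419* on the opposite strand, which unstranded mapping cannot tell apart. The shared fraction was 15.2% for *Ywhaz*, 15.0% for *Sfn* and 8.62% for *Ywhah*, also through processed pseudogenes, against 0.21% for *Ywhag* and 0 for *Ywhab* and *Ywhae*. The levels of *Ywhaq*, *Ywhaz*, *Sfn* and *Ywhah* are uncertain to that extent.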

How the data were processed

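RNA-seq libraries of PECs were prepared with the NEBNext Ultra kit and sequenced on a NextSeq 500. The authors mapped reads to mm10 with HISAT2 as paired-end and unstranded, and counted them with featureCounts 1.6.3. The authors deposited log2 CPM values, which hold 0.5 read added to each count and a normalization factor per library. The program that made these values, the annotation and the filter are not given in the sources used here. Whole reads were recovered for 100% of the values in each library. Depth was 9525979 to 12439960 reads on listed genes.

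Log2 values were tested with limma 3.58.1 in R 4.3.3, with 6 group means (6 residual degrees of freedom) and a trended prior, over 11885 genes that reached 1 CPM in 2 or more libraries, two-sided, with Benjamini-Hochberg adjustment. The genes named are the 7 members, the 2 genes most like each, and the 3 binding proteins that rose and fell most at each time; *Irak1*, *Smg5* and *Smg6* were added once their values were known. Some genes that fall under this rule are not reported here. Members and lists were chosen with earlier results of these data known, and the comparison of the 8 LPS libraries with the 4 at 0 hr was chosen after seeing the data. Lengths came from GENCODE M21 (GRCm38), which matched 93.1% of genes. The model was tested on simulated data. Python 3.11.15, pandas 2.3.3, scipy 1.17.1 and matplotlib 3.10.9 were used. Alternatives were other filters, pseudocounts, scalings, priors, weights, replicate blocks and left-out libraries.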

Additional observations from a re-analysis of the deposited data

How the results depend on the processing

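Percentages are the share of all genes called. With quantile normalization the count was 2 (*Ywhag*, *Ywhah*) at 4 hr (55.1%) and 1 at 8 hr (46.7%) for the mean of genotypes. Within genotypes it was 1 in WT (40.6% and 36%) and 1 in S513A (41.3% and 40.6%) at each time. Scaled to the total of listed reads, it was 1 in WT (44.3% and 38.7%) and 1 in S513A (45.5% and 39.7%) at each time. Without a trend in the prior it was 2 in WT at 4 hr (39.8%) and 1 in WT at 8 hr (32.2%). With only the libraries of the contrast it was 1 in WT at 4 hr (30.3%). The labels do not say whether replicate numbers pair the libraries. Correlations of replicate differences ran from -0.749 to 0.76, and no pairing was assumed. With a replicate block by number, WT at 4 hr had 2 calls (39.2%). With a replicate block by genotype and number, it had 2 (41.4%), WT at 8 hr had 1 (34.6%), and 8 hr against 4 hr had 1 (*Sfn*, 25.5%).

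Further alternatives were chosen after seeing the data. A first set of 3 libraries left out was WT 4 hr replicate 1, S513A 4 hr replicate 2 and S513A 8 hr replicate 2, and the other set was the other replicate of each group. Either set leaves a single library in these 3 groups. The error then comes only from the groups whose replicates differed least, so counts of calls are not given for these fits. With the component of the replicate differences as a term, the counts were 5 at 8 hr for the mean (59.6%), 3 for 8 hr against 4 hr (*Ywhaq*, *Ywhaz*, *Sfn*, 44.1%), 4 at 8 hr in WT (53.3%), 5 in S513A (56.3%), 2 for S513A against WT at 4 hr (*Ywhag*, *Ywhaq*, 12.6%), 1 at 8 hr (*Ywhaz*, 20.8%) and 2 for the interaction at 8 hr (*Ywhag*, *Ywhaq*, 29.9%). The shares of all genes called rose with this term too. It was made from the replicate differences of these same libraries, so calls gained with it are not separate evidence. Of the 6 neighbouring pairs of levels, 2 did not overlap per kb of the longest transcript and 2 as CPM. Of the 21 ratios, 0 passed at 4 hr alone and 0 at 8 hr alone.

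With 1 library left out, counts ran from 4 to 5 at 4 hr and 3 to 4 at 8 hr for the mean, 2 to 3 (WT) and 2 to 4 (S513A) at 4 hr, 1 to 2 (WT) and 1 to 5 (S513A) at 8 hr, 6 to 11 for the ratios, and 0 to 0 for all others. The share of all genes called also moved with the library left out. For the mean it was 49.7% at 4 hr and 39.2% at 8 hr without WT 0 hr replicate 1. Without WT 4 hr replicate 2 it was 57% and 50.4%.

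Some log2 fold changes turned their sign. With quantile normalization, at 4 hr *Ywhab* was -0.11, *Ywhag* -0.33, *Ywhaq* -0.064 and *Sfn* 0.057, and *Ywhab* -0.13 in WT and -0.091 in S513A. At 8 hr *Ywhab* was -0.090, *Ywhag* -0.13 and *Ywhaq* -0.14, with *Ywhab* -0.25 and *Ywhaz* -0.17 in WT, and at 8 hr against 4 hr *Ywhab* was 0.020 and *Ywhae* 0.042. For S513A against WT, *Ywhab* was -0.0058. With median-ratio scaling *Ywhag* was -0.045 at 4 hr and *Ywhaq* -0.016 at 8 hr. Scaled to the total of listed reads, *Ywhag* was -0.21 and -0.026 and *Ywhaq* -0.046 and -0.11 at 4 and 8 hr, *Ywhab* -0.0049 (4 hr) and -0.13 (8 hr) and *Ywhaz* -0.039 (8 hr) in WT, and 8 hr against 4 hr gave *Ywhae* 0.021 and *Ywhah* 0.0050. Without the first set of 3 libraries *Sfn* was 0.15 at 4 hr and *Ywhaq* -0.017 at 8 hr, and without the other set *Ywhag* was -0.045 at 4 hr. With 1 library left out, *Sfn* ran from -0.23 to 0.031 and *Ywhag* from -0.015 to 0.099 at 4 hr, *Ywhaq* from -0.017 to 0.12 at 8 hr, and *Sfn* from -0.030 to 0.14 for S513A against WT. The cause was not tested.

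Of 725 values of single genes under 19 alternatives, 633 kept direction and side of the threshold, 39 lost the call, 25 gained it and 28 turned sign. The depth limits *Sfn*, with 45 to 125 reads, and 2 libraries per group limit every comparison of genotypes.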
